A study of Mus musculus with 16 samples.

Results

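To compare which messages ribosomes occupied in hair follicle stem cells (HFSCs) and in their progeny, 4 ribosome profiling (Ribo-seq) libraries of α6+/CD34+ HFSCs were set against 4 of α6+/CD34− progenitors, with the treatment as a covariate. One transcript, the one with the most ribosome footprints over these 8 libraries, was kept for each of 22612 genes. Of these, the 2261 genes (10%) that averaged 10 or more footprints over the 8 libraries were tested. Each difference in footprints was set beside the difference in RNA-seq counts (message) between 4 and 4 libraries made from the same lysates.

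The cells were sorted from hair follicle organoids, the 3D–3C culture, in which epidermal cells of C57BL/6J mice grow in Matrigel with Y27632, VEGF and FGF2. After 2 weeks of culture, cells with surface integrin α6 were separated by CD34. All 4 groups shared this strain, medium and sort. They were untreated progenitors, untreated HFSCs, and progenitors and HFSCs whose organoids had received N1-acetylspermidine (N1-AcSpd), an acetylated polyamine, for the last 72 h. Each group had a library from each of 2 donor mice, so that the 4 libraries of a cell type came from 2 animals. Replicates 1 and 2 name these mice, and paired values below give replicate 1 before replicate 2.

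In ribosome profiling, RNase digests the message that is not covered by a ribosome, and the protected fragments, called footprints, are counted for each gene. A footprint count rises with the amount of message and with the number of ribosomes on each message, and the RNA-seq of the same lysate measures the first of these. HFSCs rest in the bulge of the hair follicle, are marked by CD34 and Krt15, and supply the growing hair, whereas epidermal cells that leave the basal layer switch on calcium-binding, cornified envelope and corneodesmosome proteins in turn.

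The Ribo-seq libraries held 34475 to 268052 footprints on the kept transcripts, of which 71.8% to 77.1% fell on the genes tested, and the RNA-seq libraries held 21612795 to 31524062 counts. A gene with no footprint in a library could still hold up to 3 counts, or 10.9 to 93.5 CPM (the count of a gene scaled to its library's TMM-adjusted size, used for all levels below). Over 611 genes averaging 30 or more footprints, 6 of the 8 Ribo-seq libraries correlated best with the RNA-seq library of the same label, after the mean of each assay was removed (r = 0.288 to 0.668, across genes). The exceptions were the libraries labelled N1-AcSpd HFSC. Replicate 1 had r = −0.126 with its own message library and 0.531 with that of replicate 2, and replicate 2 had −0.0306 and 0.349. The pooled tests without a mouse block are the same whichever of these labels is right. Markers of fibroblasts, melanocytes, endothelial, immune, erythroid and muscle cells held at most 5 footprints per list and cell type. The keratinocyte genes Krt5 and Krt14 held the most footprints of all genes, with 33215 ± 1817 and 16533 ± 2661 footprint CPM in HFSCs and 35660 ± 2379 and 17152 ± 1534 in progenitors (SD, n = 4).

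Relative to library size, ribosomes of HFSCs carried more footprints on Krt15, on the kinase Sgk1, on Aldh3a1 and on the linker histone Hist1h1d. They also carried more on the secreted proteins Serpina3n, Pip and Postn. They carried fewer on Ly6d, Fabp5, Calm4, Cdsn, 2310046K23Rik, Ptgs2, Krt16, Asprv1 and Serpinb2, of which 6 are on the list of late epidermal differentiation. These 16 of 2261 genes (0.708%) passed edgeR's quasi-likelihood test at an adjusted p of 0.05 (Benjamini-Hochberg), 7 of them (0.31% of the genes tested) higher and 9 (0.398%) lower in HFSCs. All 16 had the same sign in both mice and in both treatments. These are parts of the data on which the 16 were selected, so this is no separate test. In 8 of the 16 every HFSC library lay on one side of every progenitor library, as in 94 of all genes tested (4.16%), 2.26% with HFSCs higher and 1.9% with HFSCs lower. In such bulk libraries fewer cells of a type and less RNA per cell cannot be told apart. As counts are scaled to the size of each library, a difference in total footprints per cell would not appear in any of these values.

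With the mouse as a replicate block 25 genes passed (1.11%), 11 higher (0.487%) and 14 lower (0.619%), and all 16 were among them. Without untreated HFSC replicate 2 the count was 4, without untreated progenitor replicate 2 it was 6, and without the N1-AcSpd replicate 2 library of HFSCs or of progenitors it was 9. Without mouse 2 it was 8, of which 2 (Krt15 and Asprv1) were among the 16, and without mouse 1 it was 26, of which 14 were.

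**Figure D1:**
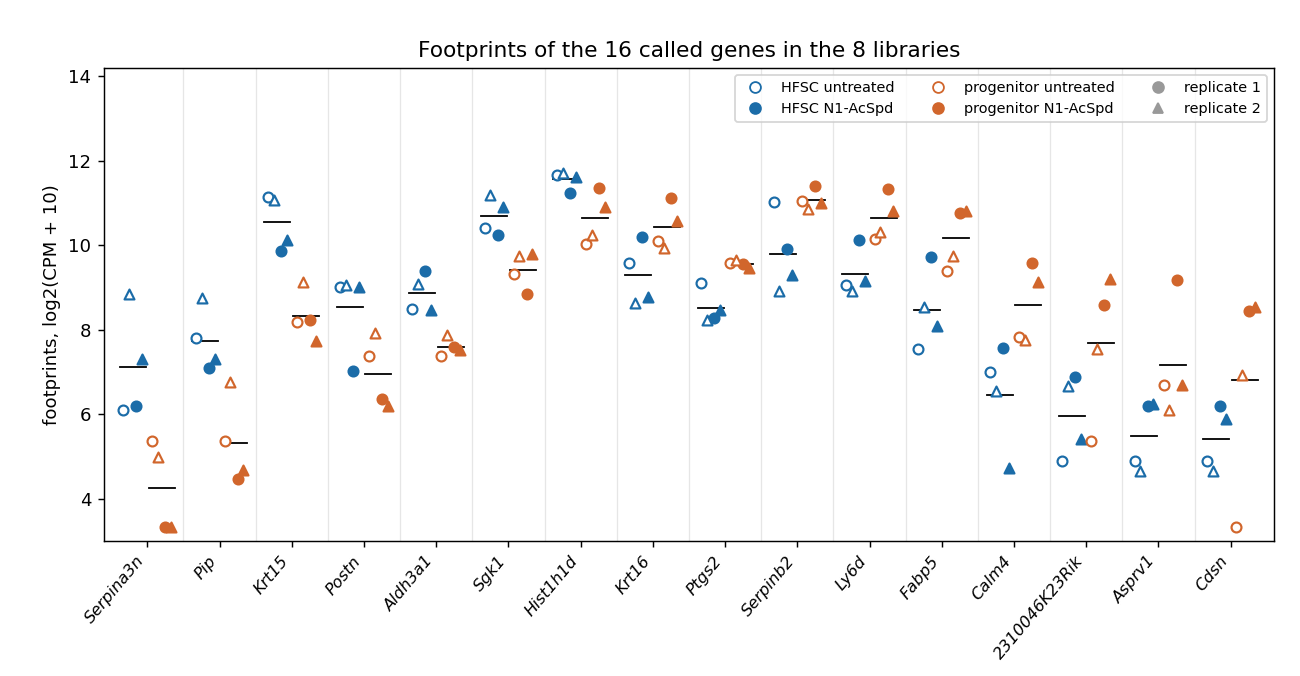
Footprints of the 16 called genes in each of the 8 libraries, on a log2 scale of footprint CPM plus 10. Blue marks are HFSCs and orange marks progenitors, open marks are untreated and filled marks N1-AcSpd, circles are replicate 1 and triangles replicate 2, and bars are the means of 4 libraries on this scale; genes run from the largest log2 change toward HFSCs on the left to the largest toward progenitors on the right. Krt15, Sgk1, Aldh3a1 and Ptgs2 are among the genes whose groups do not overlap, while single libraries of Cdsn, Asprv1 and Postn lie far from their group.

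Krt15, the type I keratin that marks bulge cells, had the smallest p-value of all genes. Its gene lies at chr11:100131758-100135928 on the minus strand (GRCm38). HFSCs given N1-AcSpd held 919.5 and 1110 footprint CPM, untreated HFSCs 2253 and 2145, progenitors given N1-AcSpd 289.8 and 203.2, and untreated progenitors 280.6 and 550.4. Every HFSC library was above every progenitor library, and the untreated HFSCs were the highest. The pooled log2 fold change was 2.14 ± 0.24 (SE), or 4.41-fold, with an adjusted p of 4.2e-07 in edgeR's test, and 1.86 ± 0.09 in message. Krt15 was called when any 1 library or either mouse was left out, and with either treatment alone. Of its 28-base coding words 5.74% also occur in another gene.

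Among the 3 secreted proteins, Serpina3n, a serine protease inhibitor, had the largest change. It held 63.4 and 146.9 footprint CPM in HFSCs given N1-AcSpd and 58.3 and 445.6 in untreated HFSCs, and in progenitors 0 and 0 with N1-AcSpd and 31.2 and 21.7 without. Every HFSC library was above every progenitor library, although these are 81 footprints in HFSCs against 7 in progenitors. This gave a log2 fold change of 3.83 ± 0.70 (adjusted p = 0.00223, edgeR), and the message gave 3.38 ± 0.45. As 2 progenitor libraries are at 0, the fitted value depends on the prior count, and with a prior count of 2 it was 2.73. Serpina3n lost its call without untreated HFSC replicate 2 (2.67, adjusted p = 0.513) and without untreated progenitor replicate 2 (4.19, adjusted p = 0.0706), and 39.3% of its coding words also occur in other genes, led by Serpina3f, Serpina3g and Serpina3c, so that its level is uncertain.

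Pip, a secreted glycoprotein, held 126.8 and 146.9 footprint CPM in N1-AcSpd HFSCs and 213.7 and 422.9 in untreated HFSCs. In progenitors it held 12.1 and 15.6 with N1-AcSpd and 31.2 and 97.8 without. The groups did not overlap, and in 3 of the 4 progenitor libraries the gene rested on a single footprint. Pip differed by 2.27 ± 0.46 on the log2 scale (adjusted p = 0.00624, edgeR) against 2.79 ± 0.33 in message, and without untreated HFSC replicate 2 it was 2.07 with an adjusted p of 0.288.

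Postn, the matricellular protein periostin, held 120.5 and 506 footprint CPM in N1-AcSpd HFSCs, 505.1 and 521.1 in untreated HFSCs, 72.4 and 62.5 in N1-AcSpd progenitors and 155.9 and 231.7 in untreated progenitors. The HFSC library of N1-AcSpd replicate 1 fell among the progenitors, so that the groups overlapped. In the pooled test Postn had a log2 fold change of 1.55 ± 0.38 (adjusted p = 0.0443, edgeR) and 1.48 ± 0.15 in message. The call was kept without that library or without untreated progenitor replicate 1, and lost without each of the other 6, with adjusted p-values from 0.0816 to 0.299. Col12a1, a collagen found on fibril surfaces, had 1215 ± 273 footprint CPM in HFSCs and 595.6 ± 244 in progenitors (SD, n = 4). Its groups did not overlap, and its log2 fold change of 0.92 ± 0.24 did not pass (adjusted p = 0.0554), but did with the mouse as a block (0.0168). Over the 12 tested genes of the secreted matrix list, 8 were positive with a median of 0.44, and Postn was the 1 called.

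Sgk1, the serum- and glucocorticoid-induced kinase, held 1192 and 1910 footprint CPM in N1-AcSpd HFSCs, 1340 and 2311 in untreated HFSCs, 446.7 and 875.2 in N1-AcSpd progenitors and 623.6 and 847.3 in untreated progenitors. The groups did not overlap. Its log2 fold change was 1.25 ± 0.24 (adjusted p = 0.00396, edgeR) and 1.06 ± 0.16 in message, and was nearly the same in both treatments (1.28 untreated, 1.23 with N1-AcSpd). Without untreated HFSC replicate 2 it was 1.06 with an adjusted p of 0.150.

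Aldh3a1, an enzyme that oxidises aldehydes, held 659.5 and 342.8 footprint CPM in N1-AcSpd HFSCs, 349.7 and 528.7 in untreated HFSCs, 181.1 and 171.9 in N1-AcSpd progenitors and 155.9 and 224.5 in untreated progenitors. The groups did not overlap, and the progenitors lay within a narrow range. Footprints of Aldh3a1 differed by 1.33 ± 0.31 on the log2 scale (adjusted p = 0.0305, edgeR). This was the 1 called gene that did not pass in message, where the log2 fold change was 0.82 ± 0.28 with an adjusted p of 0.117. The call was kept without N1-AcSpd HFSC replicate 2, untreated HFSC replicate 1 or untreated progenitor replicate 1, and lost without each of the other 5 libraries (adjusted p from 0.0640 to 0.325).

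Hist1h1d, a linker histone that binds DNA between nucleosomes, had more footprint CPM than any other called gene, on average over the 4 HFSC libraries. It held 2403 and 3134 footprint CPM in N1-AcSpd HFSCs, 3225 and 3346 in untreated HFSCs, 2608 and 1907 in N1-AcSpd progenitors and 1029 and 1206 in untreated progenitors. The treated progenitors lay between the untreated progenitors and the HFSCs, and 1 of them was above the lowest HFSC library. The log2 fold change was 0.89 ± 0.22 (adjusted p = 0.0443, edgeR) against 0.47 ± 0.09 in message. It was called without N1-AcSpd HFSC replicate 1 or N1-AcSpd progenitor replicate 1, and not without each of the other 6 libraries (adjusted p from 0.126 to 0.378). Hist1h1b (0.78 ± 0.22, adjusted p = 0.100, 0.0350 with the replicate block) and Hist1h1a (0.82 ± 0.25, adjusted p = 0.183), further linker histones, had groups that did not overlap, and Hist1h1e had −0.01 ± 0.29.

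Linker histones share coding sequence, which limits how far their footprints can be told apart. The stretch below, coding bases 103 to 162 of Hist1h1d and the matching bases of the other 4 genes, opens the longest run, 149 bases, that Hist1h1d has in common with another linker histone, Hist1h1c. Capitals mark the bases that differ from Hist1h1d (GENCODE annotation of GRCm38).
Hist1h1d: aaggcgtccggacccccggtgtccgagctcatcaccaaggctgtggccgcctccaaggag
Hist1h1c: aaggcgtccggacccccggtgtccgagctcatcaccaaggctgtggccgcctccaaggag
Hist1h1e: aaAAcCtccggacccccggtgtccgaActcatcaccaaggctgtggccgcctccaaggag
Hist1h1b: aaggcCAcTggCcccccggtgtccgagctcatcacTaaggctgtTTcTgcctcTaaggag
Hist1h1a: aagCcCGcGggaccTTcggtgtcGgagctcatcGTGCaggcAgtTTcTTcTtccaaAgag
A 28-base footprint from this stretch reads the same in Hist1h1d and Hist1h1c, which have 0 differences here, while Hist1h1e has 4, Hist1h1b 9 and Hist1h1a 18. Over the whole coding sequence, 36.2% of the 28-base words of Hist1h1d, 30.7% of Hist1h1c, 31.6% of Hist1h1e, 6.23% of Hist1h1b and 0.817% of Hist1h1a occur in another gene. The values of Hist1h1d, Hist1h1c and Hist1h1e are therefore uncertain as to which of these genes they belong to. The histone list has 15 genes, of which 10 were tested, and 9 of these were positive. Many further histone genes, among them Hist2h2bb, Hist4h4 and Hist1h4h, were tested but are not on this list, so these counts do not cover all histone genes tested. On the list, 100% of the coding words of Hist1h2bc, 73.75% of H3f3b and 31.8% of H2afx also occur in other genes. The 10 are therefore not 10 separate measurements. Over the 10, the median log2 fold change was 0.68, against 0.41 in message and −0.01 over all genes tested, and Hist1h1d was the 1 called. With the replicate block Hist1h1b and Hist1h2be (0.95 ± 0.29, adjusted p = 0.0417) passed as well, the second with 88.6% of its coding words shared. The 15 listed histone genes took 0.894% to 0.995% of the footprints of HFSC libraries and 0.464% to 0.727% of those of progenitor libraries, with no overlap.

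On the progenitor side, Ly6d, a surface protein of the Ly6 family held by a lipid anchor, held 1097 and 555 footprint CPM in N1-AcSpd HFSCs, 524.5 and 468.3 in untreated HFSCs, 2560 and 1782 in N1-AcSpd progenitors and 1122 and 1264 in untreated progenitors. The groups did not overlap, although the highest HFSC library came close to the lowest progenitor library. Its log2 fold change was −1.32 ± 0.23 (adjusted p = 0.00160, edgeR), or 2.50-fold lower, and −1.25 ± 0.30 in message. Ly6d was called when any 1 library was left out, but not without mouse 2 (adjusted p = 0.0565), and shares none of its coding words with another gene.

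Fabp5, the epidermal fatty acid-binding protein, held 830.7 and 261.2 footprint CPM in N1-AcSpd HFSCs, 174.8 and 362.5 in untreated HFSCs, 1714 and 1782 in N1-AcSpd progenitors and 654.8 and 847.3 in untreated progenitors. The 2 treated progenitor libraries were the highest, and 1 HFSC library reached into the progenitor range. Fabp5 differed by −1.51 ± 0.27 on the log2 scale (adjusted p = 0.00189, edgeR) and −1.20 ± 0.17 in message. The call was kept when any 1 library was left out, but not without mouse 2 (adjusted p = 0.0565). However, 85.5% of the coding words of Fabp5 occur in other genes, led by Gm6166, Gm14328 and Gm6100, so that its footprints could not be assigned to it alone.

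Calm4, a calmodulin-like calcium-binding protein of differentiating keratinocytes, held 177.6 and 16.3 footprint CPM in N1-AcSpd HFSCs, 116.6 and 83.1 in untreated HFSCs, 748.6 and 547 in N1-AcSpd progenitors and 218.3 and 206.4 in untreated progenitors. The groups did not overlap, and the progenitors given N1-AcSpd were the highest. The log2 fold change was −1.92 ± 0.40 (adjusted p = 0.00858, edgeR) and −1.74 ± 0.21 in message. The call was lost without N1-AcSpd HFSC replicate 2, where the change was −1.51 on the log2 scale, without untreated HFSC replicate 2 and without N1-AcSpd progenitor replicate 1 (adjusted p from 0.0627 to 0.0668).

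Corneodesmosin (Cdsn), which holds cornified cells together, and Asprv1, the skin protease that processes profilaggrin, had the largest falls. Cdsn held 63.4 and 49.0 footprint CPM in N1-AcSpd HFSCs, 19.4 and 15.1 in untreated HFSCs, 338.1 and 359.5 in N1-AcSpd progenitors and 0 and 112.2 in untreated progenitors. The untreated progenitor library with 0 is the shallowest of the 8 and could hold up to 93.5 CPM at 3 counts, and the other 3 progenitor libraries were above all HFSC libraries. The log2 fold change of Cdsn was −2.48 ± 0.52 (adjusted p = 0.0101, edgeR) and −1.97 ± 0.25 in message. It kept its call without untreated HFSC replicate 1, N1-AcSpd progenitor replicate 1 or untreated progenitor replicate 1 and lost it without each of the other 5 (adjusted p from 0.0637 to 0.115).

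Asprv1 held 63.4 and 65.3 footprint CPM in N1-AcSpd HFSCs, 19.4 and 15.1 in untreated HFSCs, 567.5 and 93.8 in N1-AcSpd progenitors and 93.5 and 57.9 in untreated progenitors. One library, N1-AcSpd progenitor replicate 1, held 47 of the 72 progenitor footprints. Its change was −2.26 ± 0.56 (adjusted p = 0.0443, edgeR) with that library and −1.18 (adjusted p = 0.946) without it, and −1.94 ± 0.34 in message. Asprv1 was called without N1-AcSpd progenitor replicate 2 or untreated progenitor replicate 1, and each of the other 5 libraries left out in turn gave an adjusted p between 0.0654 and 0.260.

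The gene 2310046K23Rik, at chr3:92532505-92534511, held 107.8 and 32.6 footprint CPM in N1-AcSpd HFSCs, 19.4 and 90.6 in untreated HFSCs, 374.3 and 578.3 in N1-AcSpd progenitors and 31.2 and 177.4 in untreated progenitors. The 2 treated progenitor libraries stood above all others, and untreated progenitor replicate 1, with a single footprint, fell within the HFSC range. Pooled, the log2 fold change was −1.92 ± 0.44 (adjusted p = 0.0264, edgeR) and −1.85 ± 0.25 in message. The call was kept without untreated HFSC replicate 2, N1-AcSpd progenitor replicate 1 or untreated progenitor replicate 1 and lost without the other 5 (adjusted p from 0.0614 to 0.305).

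The promoters of called genes that move together are shown for all 9 genes whose RefSeq start lay within 36 bases of the start of the kept transcript, as the 110 bases before the RefSeq start (GRCm38.p6, all on the plus strand). The letters TATAAA and TGANTCA are in capitals where they occur in this stretch. Higher in HFSCs are Serpina3n (chr12:104406598-104406707), Pip (chr6:41847439-41847548), Postn (chr3:54360997-54361106) and Sgk1 (chr10:21994556-21994665). Lower are Calm4 (chr13:3837647-3837756), Cdsn (chr17:35552018-35552127), Asprv1 (chr6:86628064-86628173), Ptgs2 (chr1:150099921-150100030) and Serpinb2 (chr1:107511400-107511509).
Serpina3n: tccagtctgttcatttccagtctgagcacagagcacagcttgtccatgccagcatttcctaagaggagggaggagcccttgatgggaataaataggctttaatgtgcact
Pip: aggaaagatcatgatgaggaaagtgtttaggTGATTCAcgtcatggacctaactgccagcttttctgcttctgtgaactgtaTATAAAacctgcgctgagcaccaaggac
Postn: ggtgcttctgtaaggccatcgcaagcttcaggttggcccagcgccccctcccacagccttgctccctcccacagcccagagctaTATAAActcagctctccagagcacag
Sgk1: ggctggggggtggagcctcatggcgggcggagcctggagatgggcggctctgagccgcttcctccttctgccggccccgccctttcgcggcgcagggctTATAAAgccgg
Calm4: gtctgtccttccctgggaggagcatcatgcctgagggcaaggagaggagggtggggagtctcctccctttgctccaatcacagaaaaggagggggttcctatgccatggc
Cdsn: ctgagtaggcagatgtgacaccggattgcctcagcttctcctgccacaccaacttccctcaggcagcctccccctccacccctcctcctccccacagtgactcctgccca
Asprv1: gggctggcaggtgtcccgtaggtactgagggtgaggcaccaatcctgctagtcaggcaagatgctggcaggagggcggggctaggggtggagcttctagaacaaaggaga
Ptgs2: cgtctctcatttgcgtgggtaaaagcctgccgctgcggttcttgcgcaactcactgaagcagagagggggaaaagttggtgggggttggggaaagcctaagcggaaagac
Serpinb2: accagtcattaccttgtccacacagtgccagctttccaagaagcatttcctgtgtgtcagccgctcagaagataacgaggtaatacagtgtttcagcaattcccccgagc
In the 250 bases before that start, searched on both strands, TATAAA occurred in 4 of the 9, namely 3 of 4 higher genes (Pip, Postn and Sgk1) and 1 of 5 lower genes (Serpinb2, outside the stretch shown), and in 12.4% of 32851 windows of all genes. TGANTCA occurred in 2 of the 9 and in 6.75% of all windows, and CCAAT in 2 of the 9 and in 33.8%. No match of one motif overlapped another in these 9 windows, and a match of letters is a description of the window only.

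Krt16, a keratin of wounded and stressed epidermis, held 1154 and 424.4 footprint CPM in N1-AcSpd HFSCs, 757.6 and 385.2 in untreated HFSCs, 2210 and 1516 in N1-AcSpd progenitors and 1091 and 966.8 in untreated progenitors. The groups overlapped through N1-AcSpd HFSC replicate 1. The log2 fold change was −1.05 ± 0.26 (adjusted p = 0.0443, edgeR) and −0.87 ± 0.20 in message. It was called without either replicate 1 library of HFSCs or without untreated progenitor replicate 1, and not without the other 5 (adjusted p from 0.0980 to 0.408). Of its coding words 60.7% occur in other genes, Krt14 and Krt17 among them, and neither of these was called. Of the 4 tested genes of the wound and stress keratin list, Krt16 was the 1 called, all were negative, and the median was −0.75.

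Serpinb2, the plasminogen activator inhibitor PAI-2, held 957.5 and 620.2 footprint CPM in N1-AcSpd HFSCs, 2078 and 468.3 in untreated HFSCs, 2680 and 2032 in N1-AcSpd progenitors and 2089 and 1829 in untreated progenitors. Untreated HFSC replicate 1 lay within the progenitor range and the other 3 HFSC libraries below it. Serpinb2 had a log2 fold change of −1.13 ± 0.28 (adjusted p = 0.0443, edgeR), or −1.74 without that library, and −1.50 ± 0.24 in message. The call was kept without untreated replicate 1 of either cell type and lost without the other 6 libraries (adjusted p from 0.0812 to 0.410). Serpinb2 also lost its call with edgeR's robust option (adjusted p = 0.705) and with DESeq2 (adjusted p = 0.121).

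Ptgs2, the cyclooxygenase COX-2 of prostaglandin synthesis, held 298 and 342.8 footprint CPM in N1-AcSpd HFSCs, 543.9 and 287 in untreated HFSCs, 736.5 and 687.7 in N1-AcSpd progenitors and 748.3 and 793 in untreated progenitors. The groups did not overlap, and the 4 progenitor libraries lay within 741.4 ± 43.3 (SD). For Ptgs2 the log2 fold change was −1.07 ± 0.26 (adjusted p = 0.0443, edgeR) and −0.75 ± 0.15 in message. The call was kept without untreated replicate 1 of either cell type and lost without the other 6 libraries (adjusted p from 0.129 to 0.377).

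Of these genes, Serpinb2 was the last inside the threshold and Anxa1 the first outside it. Anxa1, a phospholipid-binding protein, had 1318 ± 301 footprint CPM in HFSCs and 2372 ± 510 in progenitors (SD, n = 4), with groups that did not overlap (−0.82 ± 0.21, adjusted p = 0.0549). Tslp, an epithelial cytokine, had 2028 ± 608 and 3311 ± 718 (−0.74 ± 0.19, adjusted p = 0.0549). Apoe, a lipid carrier, had 1341 ± 467 and 695.9 ± 255 with groups that did not overlap (0.91 ± 0.23, adjusted p = 0.0549). With the replicate block edgeR's adjusted p was 0.0120 for Anxa1, 0.0130 for Tslp and 0.00634 for Apoe. Iqgap3, a scaffold protein of dividing cells, had 202.9 ± 64.1 and 54.2 ± 39.9 with groups that did not overlap (1.85 ± 0.49, adjusted p = 0.0666, 0.0548 with the block).

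The sort itself could be read in message more than in footprints. Cd34 held 32 footprints in the 4 HFSC libraries and 4 in the 4 progenitor libraries, under the minimum for a test. In message it held 67.3 to 90.0 CPM in HFSCs and 2.35 to 5.37 in progenitors, a log2 fold change of 4.53 ± 0.24 (adjusted p = 6.0e-05, edgeR). Integrin α6 (Itga6), on which both cell types were selected, had 418.3 ± 25.4 footprint CPM in HFSCs and 627.4 ± 120 in progenitors, with no overlap (−0.53 ± 0.26, adjusted p = 0.739), and in message −0.29 ± 0.07 (adjusted p = 0.0387).

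Of the 10 genes that the study used as HFSC identity markers, 3 had enough footprints. Krt15 was called. The vitamin D receptor Vdr (0.72 ± 0.33, adjusted p = 0.674) and the transcription factor Sox9 (0.32 ± 0.29, adjusted p = 0.934) were not, and their libraries overlapped. The other 7 held 9 against 2 footprints in HFSCs and progenitors (Crip1), 4 against 0 (Dab2), 34 against 13 (Dkk3), 21 against 8 (Fzd2), 24 against 17 (Id2), 3 against 2 (Lhx2) and 28 against 24 (Nfatc1). Dab2, Lhx2 and, in progenitors, Crip1 are near or under the 3-count limit, and no fold is given. In message 5 of these 7 passed, from 0.54 ± 0.11 for Id2 to 1.74 ± 0.23 for Crip1, and Dab2 (adjusted p = 0.198) and Dkk3 (adjusted p = 0.0525) did not. Of all 12256 genes tested in message, 928 (7.57%) passed in either direction.

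All 6 of the study's lineage markers were tested and none passed, with 3 at an unadjusted p under 0.05 in edgeR's test. Krt6a (1682 ± 293 against 2641 ± 366 footprint CPM, −0.64 ± 0.19, adjusted p = 0.191), Krt17 (3078 ± 120 against 4323 ± 449, −0.49 ± 0.18, adjusted p = 0.372) and Lypd3 (137.8 ± 38.7 against 309.7 ± 114, −1.12 ± 0.33, adjusted p = 0.157) had groups that did not overlap. These 3 genes, the first 2 of them keratins and the third a surface protein of the Ly6 family, were lowest in the HFSC libraries in both mice. S100a16 (−0.45 ± 0.42), S100a14 (−0.21 ± 0.24) and Lgals7 (0.02 ± 0.20) overlapped between the cell types. DESeq2 also called 0 of the 6, and Krt6a shares 77.3% of its coding words with other genes, Krt6b first.

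Among the lists with at least 4 tested genes, late epidermal differentiation had the lowest median and histones the highest, against −0.01 over all genes tested. The list of late epidermal differentiation has 124 genes, among them genes of the cornified envelope, its cross-linking and its shedding. It also holds the surface proteins Ly6d and Lypd3 and the suprabasal keratin Krt1. Of the 124, 85 had a footprint and 21 had enough for the test. Of these, 20 were negative with a median log2 fold change of −0.87, 6 passed (Ly6d, Calm4, Cdsn, 2310046K23Rik, Asprv1 and Serpinb2) and 13 had an unadjusted p under 0.05, which 150 of the 2261 genes (6.63%) had, 3.63% higher and 3.01% lower in HFSCs. The 1 positive member, the lipid transporter Abca12, had 0.28 ± 0.51 in footprints and −0.76 ± 0.08 in message. In message 18 of the 21 passed, all lower in HFSCs, with a median of −0.97. Of the 2261 genes, 104 (4.6%) passed in message with HFSCs lower. The listed genes took 0.485% to 1.03% of the footprints of HFSC libraries and 1.00% to 1.90% of those of progenitor libraries. The median stayed between −1.12 and −0.70 when any 1 library was left out.

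Further members of this list are given as examples that were chosen after their values were seen. Cornifelin (Cnfn), of the cornified envelope, had 47.2 ± 67.2 footprint CPM in HFSCs and 176.7 ± 170 in progenitors (SD, n = 4; −2.23 ± 0.60, adjusted p = 0.0711), and passed with the mouse as a block (adjusted p = 0.0163, edgeR). The protease inhibitor Spink5 had 108.4 ± 43.2 and 205.3 ± 33.4 with no overlap (−0.84 ± 0.37, adjusted p = 0.630). The suprabasal keratin Krt1 had 88.5 ± 67.0 and 185.2 ± 129 (−0.88 ± 0.46, adjusted p = 0.763), while in message it passed with −1.76. Periplakin (Ppl), −0.05 ± 0.43 in footprints and −0.79 in message, had nearly equal footprints in both cell types.

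**Figure D2:**
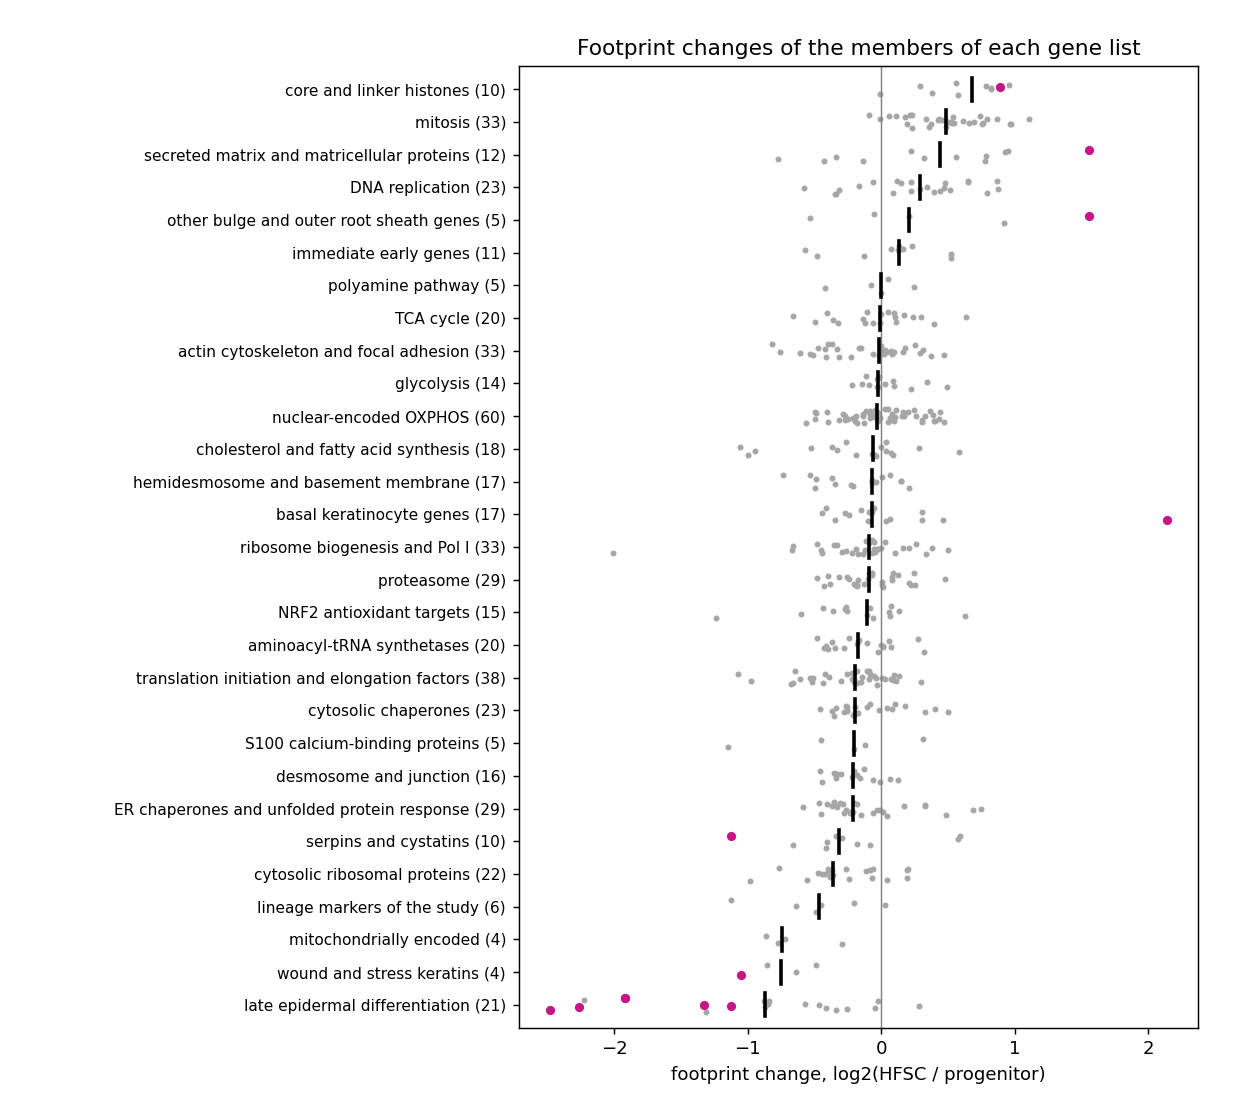
Log2 fold change in footprints (HFSC over progenitor) of every tested member of each gene list with at least 4 tested members, with the number tested in brackets. Each dot is a gene, magenta dots passed the test and black bars are medians; the histone list has a median of 0.68 and the list of late epidermal differentiation −0.87, and most other lists lie near 0.

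No gene of the mitosis and DNA replication lists passed. On the mitosis list 31 of 33 tested genes were positive (48.4% of all genes were), with a median of 0.48 (0.35 in message), 0 were called by edgeR and 5 had an unadjusted p under 0.05. DESeq2 called none of them either. Examples chosen after their values were seen are the proliferation antigen Mki67 (268.8 ± 96.3 footprint CPM in HFSCs and 150.2 ± 33.1 in progenitors, 0.97 ± 0.36, adjusted p = 0.379) and the spindle motor Kif23 (1.11 ± 0.45, adjusted p = 0.50). On the DNA replication list 17 of 23 were positive with a median of 0.29 (0.09 in message), 3 had an unadjusted p under 0.05 and 0 were called by edgeR or DESeq2. The 6 negative members of the second list included the cyclin Ccnd1 (−0.57 ± 0.37), also named after its value was seen. Mitosis genes took 0.802% to 1.44% of the footprints of HFSC libraries and 0.631% to 1.14% of those of progenitor libraries, and DNA replication genes 0.584% to 0.725% and 0.519% to 0.673%, so that both shares overlapped. The median of the mitosis list lay between 0.30 and 0.75, and that of the DNA replication list between 0.16 and 0.33, when any 1 library was left out.

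No gene of the lists of the translation machinery was called. Over all genes tested, 1167 of 2261 were negative. Of 38 initiation and elongation factors tested, 30 were negative with a median of −0.19 (−0.11 in message), 5 had an unadjusted p under 0.05 and 0 passed with edgeR or DESeq2. Eif3c, a subunit of the initiation factor eIF3, was an example with no overlap (830.9 ± 67.8 against 1129 ± 77.3 footprint CPM, −0.44 ± 0.21, adjusted p = 0.733), chosen after its value was seen. Of 22 cytosolic ribosomal proteins tested, 18 were negative with a median of −0.36 (−0.06 in message), and of 33 ribosome biogenesis genes 25 were negative with a median of −0.09. None of either list passed, and 0 and 1 had an unadjusted p under 0.05. Of 20 aminoacyl-tRNA synthetases 13 were negative with a median of −0.17, which was 0.02 with the N1-AcSpd libraries alone. Only 52 of the 82 ribosomal protein genes had any footprint on their kept transcript. Ribosomal protein genes also share coding words with other genes, for example 88.2% in Rps2, the lowest of the list, and 22.2% in Rps3. The values of this list are therefore uncertain.

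Among the remaining lists, 14 of 16 desmosome and junction genes were negative (median −0.21), as were 21 of 29 genes of the endoplasmic reticulum chaperones (median −0.21) and 11 of 17 on the basal keratinocyte list (median −0.07). Krt15 was the 1 gene called on these 3 lists. The bulge and outer root sheath list had 5 tested genes, 3 positive and 2 negative with a median of 0.21, of which Postn was called. Col17a1 (0.21 ± 0.18), Aqp3 (−0.05 ± 0.22) and Itga6 (−0.53 ± 0.26) did not pass. Its member Sostdc1, an inhibitor of BMP and WNT signalling, had 556 ± 103 footprint CPM in HFSCs and 273.2 ± 121 in progenitors with no overlap (0.92 ± 0.29, adjusted p = 0.221, an example chosen after its value was seen). Of 10 serpins and cystatins, 8 were negative with a median of −0.32, and Serpinb2 was called. The S100 list had no call without the block and 1 with it, S100a8 (−1.15 ± 0.36, adjusted p = 0.220, 0.00741 with the block). Nuclear-encoded respiratory chain genes (26 of 60 positive, median −0.03) and polyamine genes (3 of 5 positive, median 0.00) had no call.

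The 4 mitochondrially encoded genes tested were all negative with a median of −0.75, and 0.04 in message. This rested on 1 library. The mitochondrial messages took 0.653% of the footprints of untreated progenitor replicate 1 and 0.0407% to 0.188% of those of the other 7 libraries, and the median was 0.42 without mouse 1 and −1.29 without mouse 2.

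To ask whether the difference between the cell types was the same with and without N1-AcSpd, the interaction of cell type and treatment was tested in the footprints. No gene passed with edgeR (38 of 2261, 1.68%, at an unadjusted p under 0.05), with the mouse as a block (47) or with DESeq2 (13). Krt15 differed between the cell types by 2.25 on the log2 scale in untreated and 2.01 in N1-AcSpd organoids. The smallest interaction p belonged to Hist1h1d, with 1.53 untreated and 0.28 with N1-AcSpd (unadjusted p = 0.00424, adjusted p = 0.998, edgeR). Calm4 differed by −1.13 untreated and by −2.46 with N1-AcSpd, and 2310046K23Rik by −1.06 and −2.53. None of these 3 pairs differed by edgeR's adjusted test. With 2 libraries against 2, the untreated libraries alone gave 2 calls, Krt15 and Hist1h1d, and the N1-AcSpd libraries alone gave 1, Krt15.

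**Figure D3:**
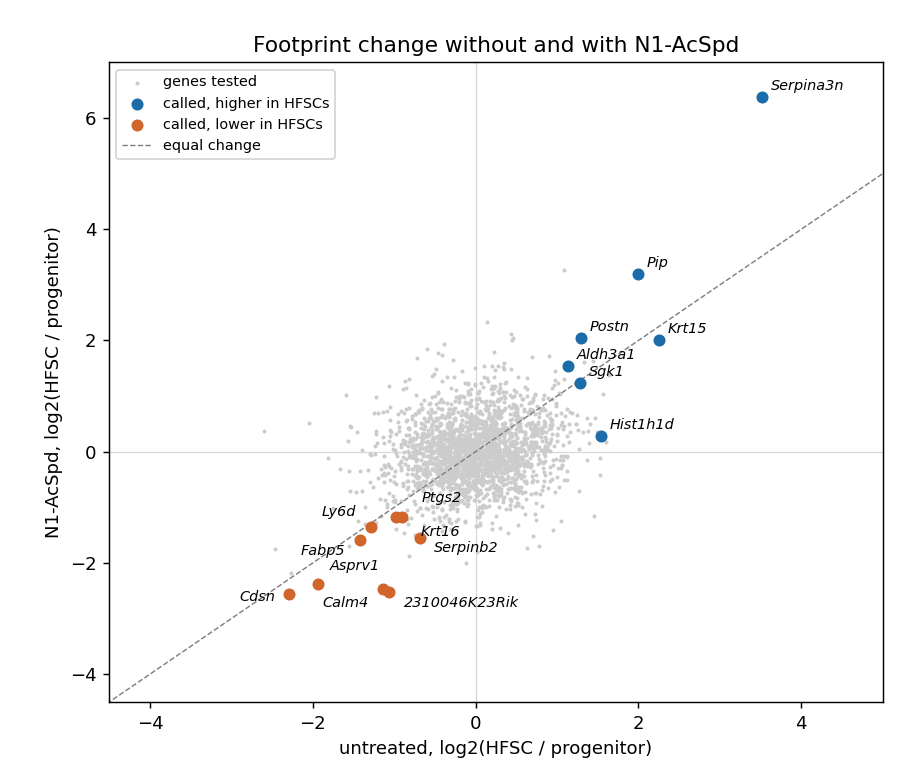
Log2 fold change in footprints (HFSC over progenitor) in untreated organoids on the x axis and with N1-AcSpd on the y axis, 1 dot for each of the 2261 genes. The 16 genes called in the pooled test are coloured and all lie on the same side of 0 on both axes, in the data on which they were selected. The value of 6.38 for Serpina3n with N1-AcSpd is a fitted value with both N1-AcSpd progenitor libraries at 0 footprints, and is no bound.

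Each footprint difference was then set beside that of the message. In message 928 of 12256 genes (7.57%) passed edgeR's test, and of the 2261 genes with enough footprints 180 (7.96%) did, 76 higher (3.36%) and 104 lower (4.6%) in HFSCs. Of the 76, 72 (94.7%) were also positive in footprints, where 48.4% of all genes were positive, and 6 were called there. Of the 104, 92 (88.5%) were negative in footprints and 9 were called. The median log2 fold change of the 76 was 0.50 in message and 0.69 in footprints, and that of the 104 was −0.42 and −0.47. Genes with at least a 2-fold difference in message, taken without regard to the test, numbered 7 higher and 13 lower in HFSCs. All of these had the same sign in footprints.

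Of the 16 genes called in footprints, all 16 had the same sign in message and 15 passed there, Aldh3a1 being the exception. In 14 of the 16 the footprint change was the larger, in genes that were selected on their footprints, and for none was the difference between the 2 assays at an unadjusted p under 0.05. Across all 2261 genes, which are not independent replicates, the changes had Pearson's r = 0.616 and Spearman's rho = 0.461, and r = 0.903 over the 124 genes that averaged 100 or more footprints. The median SE of the log2 fold change was 0.377 in footprints and 0.0781 in message, and the common coefficient of variation between libraries was 25.2% and 13.4%.

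**Figure D4:**
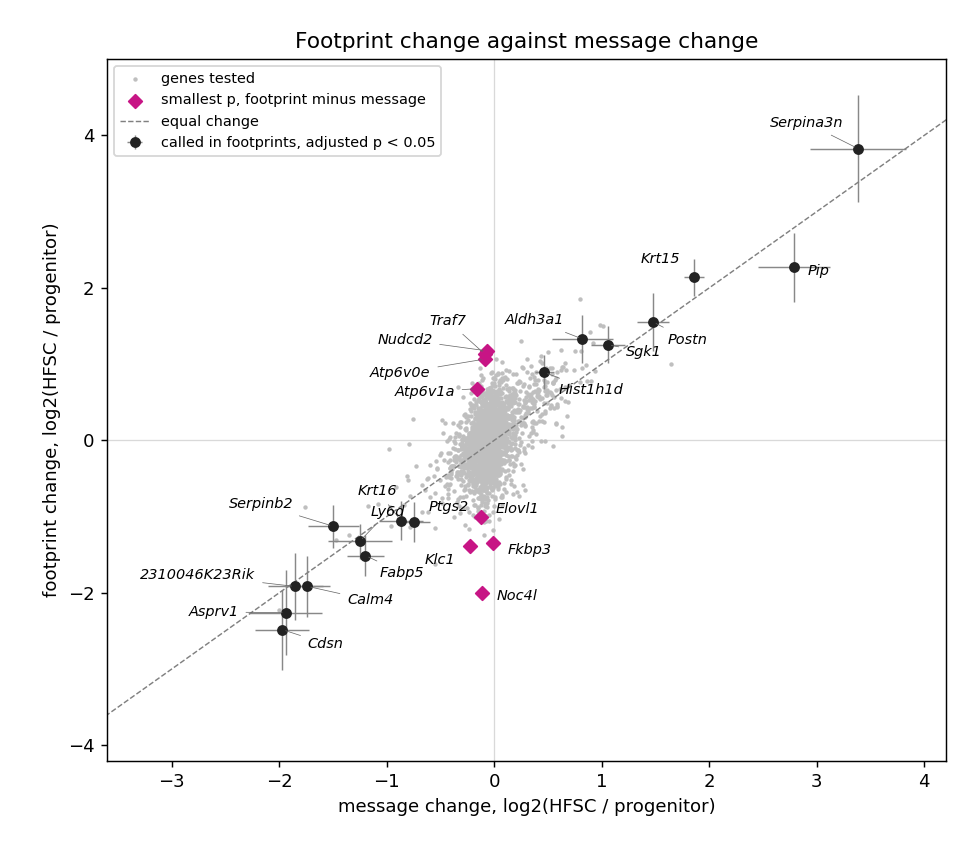
Log2 fold change (HFSC over progenitor) in message on the x axis and in footprints on the y axis for the 2261 genes tested, with the dashed line marking equal change. The 16 called genes carry bars of ± 1 SE on both axes and lie near the line. Diamonds mark 8 genes, 4 above and 4 below, with the smallest p-values for the difference between footprint and message. They were taken from the genes whose difference had the same sign in both mice.

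In a joint model of all 16 libraries, 0 of 2261 genes passed the test of the footprint against the message difference with edgeR (87, or 3.85%, at an unadjusted p under 0.05), 0 with limma voom (71, or 3.14%) and 0 with the mouse as a block (109). DESeq2 called 1 gene (152 at an unadjusted p under 0.05), Noc4l, a nucleolar protein of small ribosomal subunit assembly. Noc4l held 38.1 and 130.6 footprint CPM in N1-AcSpd HFSCs, 0 and 30.2 in untreated HFSCs, 301.8 and 187.6 in N1-AcSpd progenitors and 155.9 and 105 in untreated progenitors. A single HFSC library, N1-AcSpd replicate 2, reached into the progenitor range. Its log2 fold change was −2.01 ± 0.53 in footprints (adjusted p = 0.0570, or 0.0303 with the mouse as a block) and −0.11 ± 0.07 in message. The difference between them was −2.01 ± 0.41, with an adjusted p of 0.227 in edgeR and 0.00116 in DESeq2.

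The ranking below keeps only genes whose difference had the same sign in both mice, with the mouse labels taken as given. The next genes on this side were the kinesin light chain Klc1 (−1.28 ± 0.33, adjusted p = 0.716, edgeR), the prolyl isomerase Fkbp3 (−1.40 ± 0.36, adjusted p = 0.716) and the fatty acid elongase Elovl1 (−0.88 ± 0.26, adjusted p = 0.999). Footprints above message were led by Atp6v0e (1.06 ± 0.30) and Atp6v1a (0.77 ± 0.23), subunits of the proton pump of lysosomes, Traf7 (1.16 ± 0.34) and Nudcd2 (1.15 ± 0.36), all with an adjusted p of 0.999. The footprints of Elovl1, Atp6v0e, Traf7 and Atp6v1a did not overlap between the cell types, as in 94 of all 2261 genes tested (4.16%). All 7 genes were picked on these same footprints, so this is no separate test. None of these 7 genes passed in edgeR, voom or DESeq2.

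Krt5, Krt14, Mt1, Actb and Anxa2 held the most footprints, and all 5 overlapped between the cell types. Their log2 fold changes were −0.10 ± 0.14, −0.06 ± 0.16, 0.50 ± 0.23, −0.01 ± 0.16 and −0.16 ± 0.16, and none passed. Metallothionein (Mt1) had the widest spread, with 9445 ± 3505 footprint CPM in HFSCs and 6613 ± 2697 in progenitors (SD, n = 4, adjusted p = 0.678, edgeR). Of the coding words of Krt14 and Actb, 37.5% and 49.4% occur in other genes, so that these levels are uncertain.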

How the data were processed

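Ribo-seq and RNA-seq were made from the same cycloheximide lysates of sorted organoid cells, with footprints of 24–36 nt. The authors removed rRNA and tRNA reads with bowtie 1.2.3 and aligned the rest with STAR 2.7.3a to mm10 (GRCm38), and featureCounts is named in the submitters' notes. The values used are the deposited counts per transcript of 64026 transcripts in 16 libraries. Reads that fit several transcripts appear to be counted for each, as footprints summed over transcripts came to 2.20 to 2.32 times those of the kept transcripts. Libraries had no molecular identifiers, so the limits at 3 counts cover counting error only. Tables of the authors' own comparisons, with fold changes and p-values, were not used.

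From the counts, 1 transcript per gene and a mean of at least 10 counts were kept. A gene can reach this mean through the libraries of 1 cell type alone, and the signs counted on any list can depend on this. Counts were scaled with TMM and tested with edgeR 4.0.16 (quasi-likelihood test, two-sided, treatment as covariate, Benjamini-Hochberg) in R 4.3.3. Footprint CPM are counts over TMM-scaled library sizes. DESeq2 1.42.0, limma 3.58.1 (voom) and edgeR's robust option were alternatives. So were another scaling, other minimums, the mouse as a block, each library or mouse left out, each treatment alone, a larger prior count and sums over transcripts. The scripts were tested on simulated data.

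Groups come from the labels, which give 1 mouse identifier for all libraries numbered 1 and another for those numbered 2. The correlation of mouse differences between groups was 0.0215 to 0.113 in footprints. In message it was 0.352 to 0.591 between 3 groups and −0.572 to −0.395 with the N1-AcSpd HFSCs. With 2 animals, p-values measure mainly the spread between libraries.

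Named genes are Krt15 and Calm4, the sorting markers and the study's 10 identity and 6 lineage markers. To these were added the 12 genes with the smallest p in each direction, of one sign in both mice and treatments. The 4 with the smallest p for footprint against message in each direction, of one sign in both mice, were also taken. Last come the 5 with the most footprints and called list members. The members and lists were chosen with earlier results of these data known. Promoters come from RefSeq (GRCm38.p6), and positions and coding words of 28 bases from the GENCODE annotation of GRCm38.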

Additional observations from a re-analysis of the deposited data

Results flagged for a closer look

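Over 90 groups of 4 libraries (45 genes in 2 cell types), 6 held a library whose gap to the nearest of the others took more of the group's range than Dixon's 95% limit allows, and chance gives this in about 1 of 20 groups. Postn had 120.5 footprint CPM in HFSCs given N1-AcSpd, replicate 1, and 505.1 to 521.1 in the other HFSC libraries. Ly6d had 1097 in the same library and 468.3 to 555 in the others. Asprv1 had 567.5 in progenitors given N1-AcSpd, replicate 1, and 57.9 to 93.8 in the other progenitor libraries. S100a16 had 187.1 in untreated progenitor replicate 1 and 155.7 to 157 in the others. Traf7 had 293.8 in HFSCs given N1-AcSpd, replicate 2, and 135.9 to 139.5 in the others. Elovl1 had 58.3 in untreated HFSC replicate 1 and 128.4 to 139.5 in the others.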

How the results depend on the processing

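The 16 calls in footprints became 8 with DESeq2, 150 at an unadjusted p under 0.05, 2 with the untreated and 1 with the N1-AcSpd libraries alone, and 4 to 26 when 1 library or 1 mouse was left out. RLE scaling gave 16, a minimum mean of 1 count 16 of 8440 genes and no minimum 14 of 11158. With edgeR's robust option 22 genes passed, of which 15 were among the 16. With footprints summed over all transcripts of a gene edgeR gave 0 of 4089 calls (161 at an unadjusted p under 0.05), and the common dispersion was 0.226 in place of 0.0636. The cause of these differences was not tested. The 928 calls in message became 1451 with DESeq2 and 117 to 266 without 1 mouse. The footprint against message test gave 1 call with DESeq2.

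With the mouse as a replicate block, footprints gave 25 calls, message 898, and both interaction tests 0. In an alternative chosen after seeing the data, the 2 message libraries labelled N1-AcSpd HFSC were exchanged in the block, which gave 2380 calls in message and 0 in the footprint against message test (123 at an unadjusted p under 0.05).

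Of 810 alternative values for named genes, 637 kept their direction and side of the threshold, 127 lost their call, 25 gained one and 21 changed sign. Only the 16 called genes could lose a call, so all 127 losses fell on them and 810 is not their base. Each called gene had 18 alternative settings. The number in which the call was kept ran from 6 for Serpinb2 to 17 for Krt15. The sign changes were in Sox9, Lgals7, S100a14, S100a16, Krt14 and Actb, none of which was called. With 1 library or mouse left out Sox9 ran from −0.0083 to 0.55, Lgals7 from −0.11 to 0.19, S100a14 from −0.51 to 0.15, Krt14 from −0.18 to 0.037 and Actb from −0.14 to 0.15 on the log2 scale. With the untreated libraries alone Lgals7 had −0.042, Krt14 0.049 and Actb 0.10, and with the N1-AcSpd libraries alone S100a16 had 0.16. Depth limits the comparison to 10% of the genes.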
